A study of Mus musculus with 14 samples.

Results

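Cytochrome P450 enzymes of the Cyp3a and Cyp1a subfamilies, the liver enzymes that oxidise many drugs, steroids and planar aromatic compounds, were examined in mouse livers with and without AMP-activated protein kinase (AMPK). The set was defined by name as 7 Cyp3a genes, Cyp1a1, Cyp1a2 and Por, which encodes the reductase that passes electrons to these enzymes. Of these 10 genes, 9 had a named row among the 19505 named genes of the array table. Por had none and was not analysed here. The names were chosen with the knockout and control values of these livers already known, so the difference between the groups is given for them as a description, without a test.

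P450 enzymes are haem proteins of the endoplasmic reticulum. Each catalytic cycle needs electrons from the reductase and, for some substrates, from cytochrome b5. Cyp3a genes are switched on by the pregnane X receptor PXR (Nr1i2) and the constitutive androstane receptor CAR (Nr1i3), nuclear receptors that bind DNA together with RXR and recognise repeated hexamer half-sites. Cyp1a genes are switched on by the aryl hydrocarbon receptor AhR (Ahr) with its partner Arnt, which bind a short xenobiotic response element. In mouse liver Cyp1a2 is expressed constitutively around the central vein, whereas Cyp1a1 stays near silent until an AhR ligand arrives. Cyp3a41a and Cyp3a44 are known as female-predominant genes, and Cyp3a16 as a fetal and perinatal one.

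The 14 samples were livers of male mice on the C57BL/6 background, labelled as 4 months old. Controls and knockouts alike were homozygous for floxed Prkaa1 (AMPK alpha1) and Prkaa2 (alpha2), had eaten a high-fat diet for 4 weeks when the virus was given, took metformin, a glucose-lowering drug, for the next 3 weeks (50 mg/kg/day), and were fasted 16 h. The control group (n = 6, genotype label TGB_empty-vector WT) received the adeno-associated virus AAV8-TBG with no insert, and the knockout group (n = 8, genotype label TGB_Cre KO) received AAV8-TBG-Cre. The TBG promoter drives Cre in hepatocytes, and other liver cells are not its target. No group without metformin enters the comparison. The labels do not say that each sample is a separate mouse, so the spread between samples may be partly technical, and in whole liver fewer cells of a type and less RNA per cell cannot be told apart. The values are log2 intensities. They allow a gene to be compared between arrays, not the level of one gene with that of another.

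By their correlations (0.988 to 0.994 within, 0.951 to 0.963 across), the arrays formed 2 sets, which no label names. Set 1 contains controls 1–3 with knockouts 1–4, and set 2 the remaining 3 controls and 4 knockouts. Differences between groups were therefore estimated with the set as a term in the limma fit, and values are given set by set. Both targeted genes fell in the knockout livers, Prkaa2 by 1.13 ± 0.08 on the log2 scale (SE, n = 6 and 8; limma adjusted p = 1.92e-06) and Prkaa1 by 0.67 ± 0.13 (SE; limma adjusted p = 0.0302). Without the set term 0 of the 19505 genes passed limma's adjusted threshold of 0.05, these 2 included, and 655 had an unadjusted p under 0.05, against 137 (0.702%; 0.431% higher and 0.272% lower) and 2021 with it; limma is the only tool that was run. Leaving out 1 array at a time lost Prkaa1 8 times in 14 (adjusted p up to 0.0770). Hepatocyte markers were high on every array, with list means of 13.2 to 13.4, and 0 of 13 passed the test. Marker means of other cell types differed between arrays of a group. Liver endothelial means were 6.81 in control 1, against 7.80 and 7.85 in the other controls of set 1, and 7.46 in control 4, against 8.16 and 8.18 in the other controls of set 2. In the set 1 knockouts they were 7.17 and 7.16 in knockout 1 and knockout 4, against 7.73 and 7.69 in the others, and in set 2 knockouts they ran from 7.81 to 8.26. Kupffer cell means in set 1 were 7.95 in control 1, against 8.91 and 8.77 in the other controls. In knockout 1 they were 8.10, against 8.51 to 8.96 in the other knockouts of that set. In set 2 they were 8.06 in control 4, against 8.43 and 8.47, and 8.14 in knockout 5, against 8.47 to 8.74. Bile duct means were 6.28 in control 3 and 6.32 in knockout 1, against 4.94 to 5.27 elsewhere. Control 1 and control 4 were left out together, and every array was left out in turn. Knockout arrays 7 and 8 carry the description numbers of 5 and 6 again, but their values are not copies of those arrays, and each was counted as a sample.

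The 7 measured Cyp3a members all lie on mouse chromosome 5. In the gene order of the RefSeq annotation, Cyp3a16, Cyp3a41a, Cyp3a44, Cyp3a11, Cyp3a25 and Cyp3a59 sit close together with Cyp3a57, Cyp3a41b and several pseudogenes, while Cyp3a13 stands apart, with 33 genes between it and the pseudogene Cyp3a61-ps1 and a further 174 before Cyp3a57. Cyp1a1 and Cyp1a2 are on chromosome 9. Near-identical copies share sequence, and how the array rows split signal between such copies is not known here. The values of Cyp3a41a and Cyp3a41b, and of Cyp3a25, Cyp3a57 and Cyp3a59, may therefore overlap in part. Whether Cyp3a11, Cyp3a44, Cyp3a41a and Cyp3a16 also share signal was not tested, so their differences may not be separate measurements.

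The upstream regions show how the members are related, and are printed so that this kinship can be set beside how the genes varied from liver to liver. Each is the 200 bases before the transcription start in RefSeq's GRCm38.p6 annotation, on the strand of the gene, 5′ to 3′. They were read at chr5:146079058-146079257 (plus strand) for Cyp3a59, chr5:146009619-146009818 (minus) for Cyp3a25, chr5:145879855-145880054 (minus) for Cyp3a11, chr5:145805875-145806074 (minus) for Cyp3a44, chr5:145720137-145720336 (minus) for Cyp3a41a, chr5:137921620-137921819 (minus) for Cyp3a13, chr9:57697413-57697612 (plus) for Cyp1a1 and chr9:57683656-57683855 (minus) for Cyp1a2. Capitals mark exact matches on either strand, so that a site on the opposite strand appears as its reverse complement. The motifs were the nuclear receptor half-site AGGTCA and, as its variant form, the hexamer AGTTCA. For Cyp1a genes the xenobiotic response element core, GCGTG, was searched. The TATA motif was taken as TATAAA.
Cyp3a59: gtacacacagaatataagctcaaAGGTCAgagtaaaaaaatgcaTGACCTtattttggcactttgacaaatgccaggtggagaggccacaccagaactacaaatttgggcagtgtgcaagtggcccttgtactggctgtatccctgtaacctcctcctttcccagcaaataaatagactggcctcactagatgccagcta
Cyp3a25: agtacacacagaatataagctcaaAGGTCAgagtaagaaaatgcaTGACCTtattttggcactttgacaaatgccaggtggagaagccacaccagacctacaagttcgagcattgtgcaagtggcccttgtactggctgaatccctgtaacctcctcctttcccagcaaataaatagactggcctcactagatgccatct
Cyp3a11: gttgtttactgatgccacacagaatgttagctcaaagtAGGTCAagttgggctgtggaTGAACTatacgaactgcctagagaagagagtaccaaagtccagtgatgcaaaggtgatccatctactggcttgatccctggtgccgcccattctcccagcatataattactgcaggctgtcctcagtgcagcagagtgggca
Cyp3a44: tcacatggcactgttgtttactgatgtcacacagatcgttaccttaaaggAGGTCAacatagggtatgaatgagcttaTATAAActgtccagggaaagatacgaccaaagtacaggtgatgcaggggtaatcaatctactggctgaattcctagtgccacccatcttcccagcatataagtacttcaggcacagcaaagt
Cyp3a41a: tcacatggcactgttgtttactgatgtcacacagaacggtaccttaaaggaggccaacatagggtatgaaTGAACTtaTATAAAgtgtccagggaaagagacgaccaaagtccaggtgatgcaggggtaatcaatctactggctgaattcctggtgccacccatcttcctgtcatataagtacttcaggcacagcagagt
Cyp3a13: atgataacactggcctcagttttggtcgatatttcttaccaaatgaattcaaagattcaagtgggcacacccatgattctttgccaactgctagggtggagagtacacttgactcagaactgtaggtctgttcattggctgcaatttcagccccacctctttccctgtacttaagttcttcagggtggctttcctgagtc
Cyp1a1: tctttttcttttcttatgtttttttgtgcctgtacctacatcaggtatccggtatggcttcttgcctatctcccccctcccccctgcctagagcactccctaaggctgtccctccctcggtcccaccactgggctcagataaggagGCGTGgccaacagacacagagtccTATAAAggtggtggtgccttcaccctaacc
Cyp1a2: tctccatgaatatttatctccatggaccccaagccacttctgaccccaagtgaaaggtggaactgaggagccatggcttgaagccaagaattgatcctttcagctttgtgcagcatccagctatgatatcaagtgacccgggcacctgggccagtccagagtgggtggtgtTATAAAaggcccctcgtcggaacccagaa

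The Cyp3a upstream regions formed 2 families and 1 outlier. Cyp3a59 and Cyp3a25 were identical at 190 of the 200 positions when aligned, and Cyp3a57 matched them at 93.0% and 91.0%. Cyp3a44, Cyp3a41a and Cyp3a16 matched each other at 91.5% to 94.0%, and Cyp3a11 matched these 3 at 74.0% to 78.0%. Cyp3a41a and Cyp3a41b differed at 1 position (99.5%). Between the families identity was 55.5% to 63.5%, and Cyp3a13 reached at most 61.0% with any other member, against 45.0% to 55.0% between a Cyp3a and a Cyp1a gene.

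Half-sites differed between the families. Cyp3a59, Cyp3a25 and Cyp3a57 each held AGGTCA and, 15 bases on, TGACCT, the same hexamer on the opposite strand. This spacing was noticed in these sequences and then counted: it occurred in 5 of 32851 upstream windows of the same length (0.0152%), of which 4 belong to these 3 genes and 1 to Foxp3. The windows of these genes are near-identical, so a long pattern taken from 1 of them is likely to recur in the others. No other spacing was counted, and the rarity is no test. Cyp3a11 held AGGTCA at -162 and TGAACT at -142, Cyp3a44 held AGGTCA at -150, and Cyp3a41a held TGAACT at -130. Over all 32851 windows AGGTCA was found on either strand in 11.4% and AGTTCA in 9.28%. The response element core GCGTG was present once in Cyp1a1, at -54, with a TATA motif at -30, and not in the window of Cyp1a2, which had a TATA motif at -29. Of all windows 24.7% held GCGTG and 9.96% held TATAAA. These matches describe letters and not sites in use, and a window with no match says nothing about regions farther away.

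**Figure D1:**
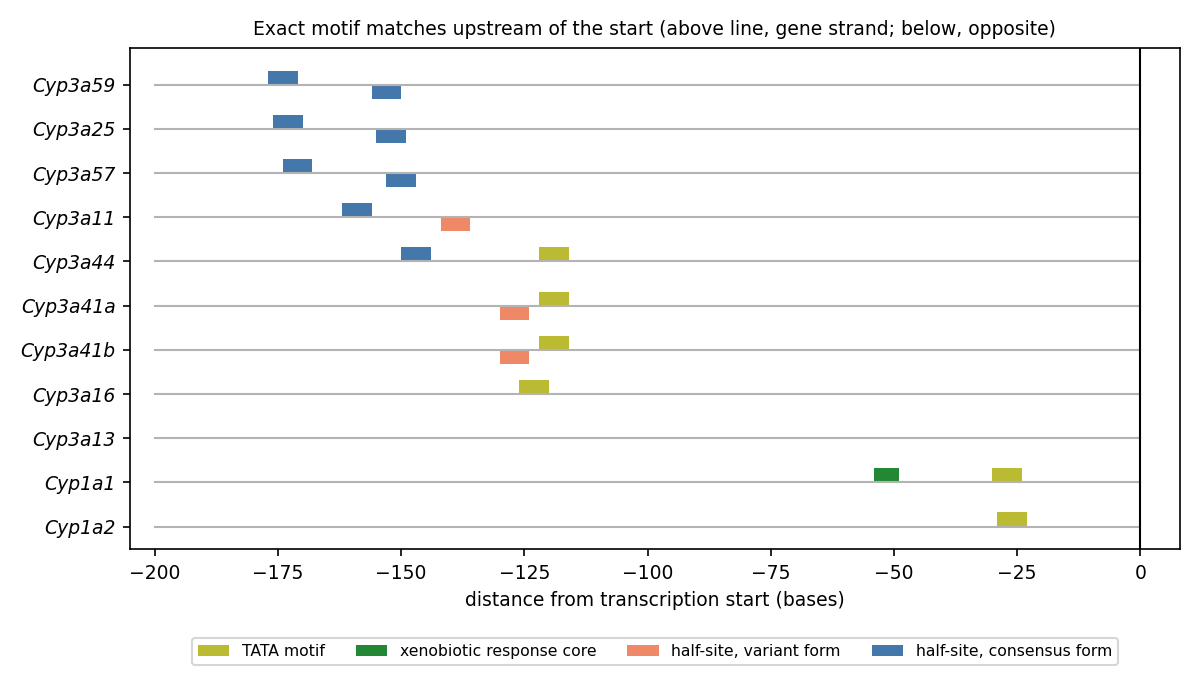
Exact motif matches in the 200 bases upstream of 11 P450 genes, plotted by distance from the transcription start in bases. Boxes above a line are on the gene's strand and boxes below it on the opposite strand; Cyp3a59, Cyp3a25 and Cyp3a57 share a pair of consensus half-sites, and Cyp3a13 has no match.

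Of the members in the cluster, Cyp3a59, Cyp3a44, Cyp3a41a, Cyp3a11 and Cyp3a25 lay higher in the knockout livers on average. The cluster gene Cyp3a16, and Cyp3a13, Cyp1a2 and Cyp1a1, showed small differences of either sign. Of the 9 measured members 7 had a positive difference, knockout minus control, and 2 a negative one, against 50.6% positive among all genes. A difference of at least 0.25 on the log2 scale was found for 5 members, Cyp3a59, Cyp3a44, Cyp3a41a, Cyp3a11 and Cyp3a25, where 3.62% of all genes lay that far above. The members' median difference was 0.26 and that of all genes 0.00. Since the members were named with this contrast in view, nothing is read from these counts, and no adjusted p is given for a member. Without control 1 and control 4, the controls with the lowest endothelial means of their sets, the differences were 0.75 for Cyp3a59, 0.60 for Cyp3a44, 0.51 for Cyp3a41a, 0.41 for Cyp3a11 and 0.33 for Cyp3a25. In these 5 genes both controls lay above the control mean of their set, so leaving them out could only raise the difference. Knockout 1 and knockout 4, which also had low endothelial means, stayed in. These values are therefore no check on cell composition.

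Cyp3a59, a close relative of Cyp3a25 at the end of the cluster, had the largest difference of the 9. In set 1 the control values were 9.96, 9.63 and 9.62 and the knockout values 10.56, 10.37, 10.49 and 10.31. In set 2 the controls gave 10.00, 9.07 and 9.89 and the knockouts 10.09, 10.21, 10.03 and 10.35. Every knockout array was above every control of either set, and the difference was 0.61 ± 0.13 (SE, n = 6 and 8; 95% interval 0.34 to 0.88), or 1.53-fold. All 8 knockout arrays lay above the controls of their own set in 0.774% of all genes and below them in 0.538%, and Cyp3a59 was the one member in the first class. The difference was 0.70 in set 1 and 0.52 in set 2, and it moved to 0.49 without control 5, the lowest array.

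Cyp3a25, an adult liver enzyme of the same upstream family, differed by less. The set 1 arrays gave 11.72, 11.51 and 11.51 in controls and 11.94, 11.88, 11.87 and 11.88 in knockouts. The set 2 arrays gave 12.00, 11.57 and 12.06 in controls and 12.04, 12.12, 12.03 and 12.15 in knockouts. Each knockout of set 1 was above all 3 controls, whereas in set 2 control 6 lay above knockout 5 and knockout 7. The difference was 0.26 ± 0.08 (SE, n = 6 and 8; 95% interval 0.09 to 0.43), or 1.20-fold, and was 0.31 in set 1 and 0.21 in set 2.

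Cyp3a11 is the major adult Cyp3a enzyme of mouse liver and the usual readout of PXR activity. Controls of set 1 read 12.22, 11.88 and 12.32 against 12.22, 12.43, 12.41 and 12.64 in its knockouts. Controls of set 2 read 12.34, 11.83 and 12.12 against 12.34, 12.53, 12.34 and 12.64. Knockout 1 and, in set 2, knockout 5 and knockout 7 were within or at the edge of the control range, and the other 5 knockouts were above all controls of their set. The difference was 0.33 ± 0.10 (SE, n = 6 and 8; 95% interval 0.12 to 0.54), or 1.25-fold, with 0.29 in set 1 and 0.37 in set 2.

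Cyp3a44, with 2 annotated genes between it and Cyp3a11 in the cluster, was the most scattered member, with a residual SD of 0.33. In set 1 the control values were 6.52, 6.11 and 6.68 and the knockout values 6.63, 6.89, 6.71 and 7.29. In set 2 the controls gave 6.47, 5.32 and 6.32 and the knockouts 6.44, 6.62, 6.59 and 6.53. Control 5 was the lowest array (5.32), followed by control 2 (6.11), and 6 of 8 knockouts lay above the controls of their set. The difference was 0.47 ± 0.16 (SE, n = 6 and 8; 95% interval 0.14 to 0.81), or 1.39-fold, and it was 0.31 without control 5, a change of over 1.5 times.

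Cyp3a41a, a female-predominant gene with 1 annotated gene between it and Cyp3a44, was below the array median on all 14 arrays. The set 1 arrays gave 5.06, 4.80 and 4.94 in controls and 4.99, 5.19, 5.50 and 5.65 in knockouts. The set 2 arrays gave 4.59, 4.15 and 4.44 in controls and 4.67, 4.83, 4.65 and 5.23 in knockouts. In the knockouts 7 of 8 arrays were above their own controls, knockout 1 being the exception. The difference was 0.43 ± 0.12 (SE, n = 6 and 8; 95% interval 0.18 to 0.68), or 1.34-fold, with 0.40 in set 1 and 0.45 in set 2. Set 2 was lower than set 1 by 0.51 ± 0.12 (SE) in this gene, and the groups overlap when the sets are pooled.

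Cyp3a16, the perinatal gene, was also below the array median on all arrays. Its values ran from 3.03 to 3.51 in the controls and from 2.98 to 3.72 in the knockouts, and the control range lay inside that of the knockouts. The difference was 0.11 ± 0.10 (SE, n = 6 and 8; 95% interval -0.11 to 0.32), and it was 0.06 without knockout 5 and 0.17 without knockout 7. The background level of these arrays is not known, so whether the row measures the transcript at this level cannot be told.

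Cyp3a57 and Cyp3a41b, cluster genes outside the set, had differences of 0.24 ± 0.12 and 0.48 ± 0.14 (SE), the first 0.14 without control 5. All 8 measured genes of the cluster had a positive difference. Most of them are members named with this contrast in view, and near-identical rows may share signal, so nothing is read from that count. The 95% intervals ran from -0.01 to 0.49 for Cyp3a57 and from -0.11 to 0.32 for Cyp3a16. Like the intervals of the other cluster genes, they show precision and are no test. Cyp3a13, which is apart from the cluster and is expressed in intestine as well as liver, had a negative difference. Controls of set 1 read 11.19, 10.77 and 10.73 against 10.86, 10.75, 10.93 and 10.76 in its knockouts. Controls of set 2 read 11.13, 10.57 and 10.71 against 10.50, 10.65, 10.39 and 10.55. Control 1 and control 4 were the highest arrays of their sets, and the remaining controls overlapped the knockouts. The difference was -0.18 ± 0.10 (SE, n = 6 and 8; 95% interval -0.39 to 0.04), and it was -0.09 without control 4 and -0.02 without both of these controls. These are the controls with low endothelial marker means; the part of that in the Cyp3a13 values was not tested.

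**Figure D2:**
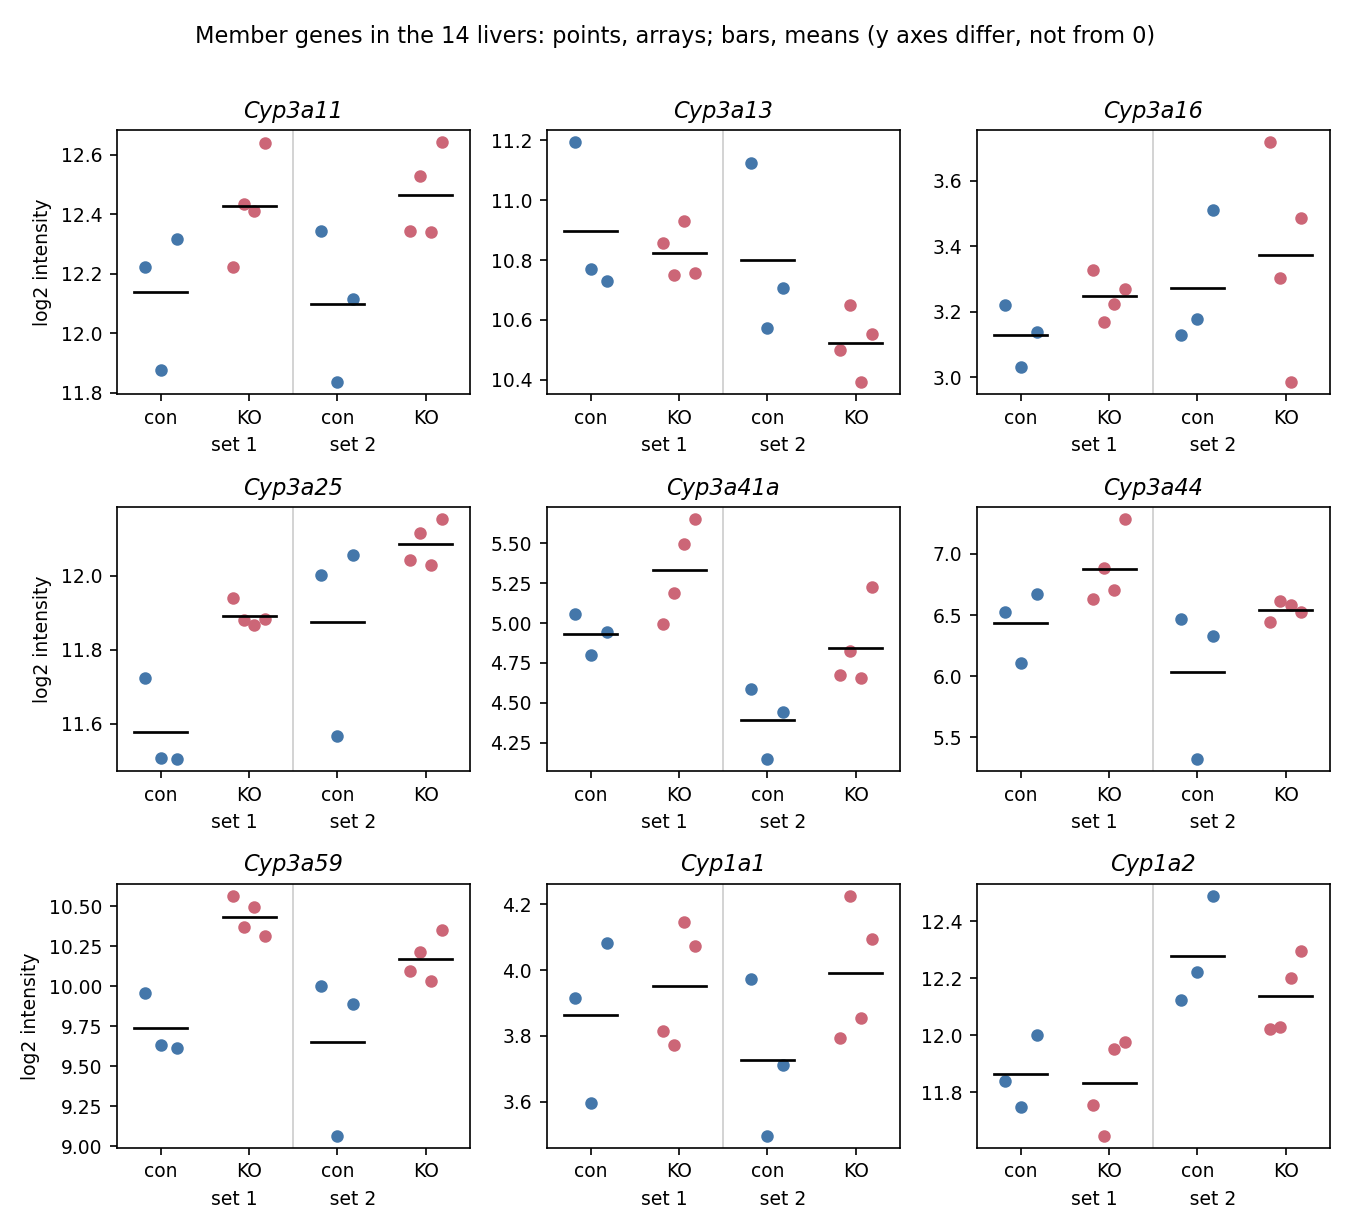
Log2 intensity of the 9 measured members on each of 14 arrays, by group and array set; each point is 1 array and each bar a group mean within a set. The Cyp3a59 knockouts lie above all controls, and the Cyp1a2 groups overlap.

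Cyp1a2, the constitutive pericentral enzyme that oxidises caffeine and aromatic amines, did not separate the groups. In set 1 the control values were 11.84, 11.75 and 12.00 and the knockout values 11.75, 11.65, 11.95 and 11.98. In set 2 the controls gave 12.12, 12.22 and 12.49 and the knockouts 12.02, 12.03, 12.20 and 12.29. No knockout was above all controls of its set, and 3 were below them. The difference was -0.09 ± 0.09 (SE, n = 6 and 8; 95% interval -0.27 to 0.10), or 0.942-fold, and -0.03 without control 6. The gap between the sets, 0.35 ± 0.08 (SE), was larger than that between the groups.

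Cyp1a1, the inducible AhR target, was below the array median on all 14 arrays. It ran from 3.50 to 4.08 in the controls and from 3.77 to 4.23 in the knockouts, and 3 of 8 knockouts were above the controls of their set. The difference was 0.18 ± 0.11 (SE, n = 6 and 8; 95% interval -0.05 to 0.41), with 0.09 in set 1 and 0.27 in set 2, and it was 0.11 without control 5.

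**Figure D3:**
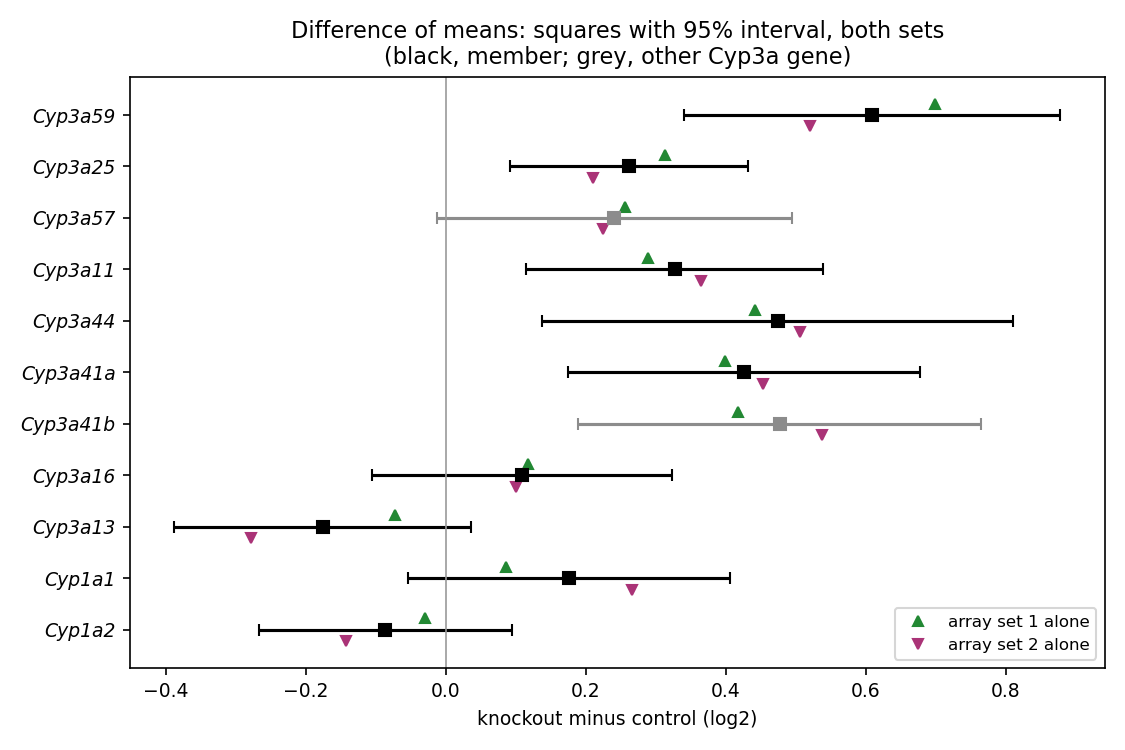
Difference of each member, knockout minus control on the log2 scale, with its 95% interval from the set-term limma fit and the differences within each array set as separate points. Intervals show the precision of each value and are no test; the differences run from -0.18 for Cyp3a13 to 0.61 for Cyp3a59, with Cyp3a57 and Cyp3a41b in grey.

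Apart from the difference between groups, some members varied together from liver to liver. Each array's deviation from the mean of its group and set was taken, and the 36 pairs of members were correlated over the 14 arrays; the rule that chose the members used none of these deviations. Of the 36 correlations 34 were positive, and 4 had an adjusted p under 0.05 by exact two-sided permutation over the 20736 rearrangements within group and set, adjusted by Benjamini-Hochberg over the 36. The share of all gene pairs that correlate this way was not counted, so the counts are not read as a trait of the members. Arrays share RNA quality and normalization, and related Cyp3a genes, Cyp3a11, Cyp3a41a and Cyp3a44 among them, may share probes. These were not separated here.

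For Cyp3a25 and Cyp3a59, whose upstream regions match at 190 of 200 positions, Pearson's r was 0.96 (exact permutation p = 0.00444, adjusted p = 0.0399) and Spearman's rho 0.88 (exact permutation p = 0.00661, adjusted p = 0.0725). For this pair r was 0.87 within set 1, 0.98 within set 2, 0.92 without the 2 arrays farthest from the median of the first gene, and 0.96 without control 1 and control 4. For Cyp3a11 and Cyp3a44 Pearson's r was 0.84 (exact permutation p = 0.00135, adjusted p = 0.0243) and Spearman's rho 0.84 (exact permutation p = 0.00569, adjusted p = 0.0725), and r was 0.95 within set 1, 0.78 within set 2, 0.76 without the 2 arrays farthest from the median of the first gene, and 0.81 without control 1 and control 4. For Cyp3a11 and Cyp3a41a Pearson's r was 0.83 (exact permutation p = 3.38e-04, adjusted p = 0.0122) and Spearman's rho 0.84 (exact permutation p = 4.82e-04, adjusted p = 0.0174), and r was 0.75 within set 1, 0.91 within set 2, 0.84 without the 2 arrays farthest from the median of the first gene, and 0.82 without control 1 and control 4. Cyp3a11 also varied with Cyp1a1, a gene on another chromosome: Pearson's r was 0.84 (exact permutation p = 0.0042, adjusted p = 0.0399) and Spearman's rho 0.81 (exact permutation p = 0.00805, adjusted p = 0.0725). For that pair r was 0.78 within set 1, 0.90 within set 2, 0.76 without the 2 arrays farthest from the median of the first gene, and 0.81 without control 1 and control 4. Cyp1a1, Cyp3a41a and Cyp3a16 were below the array median on all 14 arrays. The background level is not known, so whether their correlations reflect the transcripts cannot be told. How far the correlations follow the upstream families cannot be told from these values. Cyp3a16, the closest upstream match of Cyp3a11 among the members, had r = 0.10 with Cyp3a11, 0.16 with Cyp3a41a and 0.07 with Cyp3a44. Its row may not measure the transcript, so these low values cannot decide the question. Across the families r was 0.70 for Cyp3a25 with Cyp3a44, 0.62 for Cyp3a44 with Cyp3a59 and 0.53 for Cyp3a11 with Cyp3a59, beside 0.59 for Cyp3a41a with Cyp3a44 within a family. These 3 pairs across families had r of 0.06, -0.31 and -0.20 in set 1 and 0.94, 0.94 and 0.91 in set 2. Without the 2 arrays farthest from the median of the first gene named, they had 0.31, -0.01 and 0.24, and Cyp3a41a with Cyp3a44 had 0.69. The adjusted p by exact permutation was 0.433 for each of the 3 and 0.125 for Cyp3a41a with Cyp3a44. Differences between correlations were not tested. Cyp1a2 correlated with the other members at -0.25 to 0.52 over both sets, and the sets differed. In set 1 and set 2, r was 0.92 and -0.13 with Cyp1a1 and 0.74 and 0.32 with Cyp3a41a. It was 0.66 and 0.05 with Cyp3a11, and -0.19 and 0.33 with Cyp3a25.

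**Figure D4:**
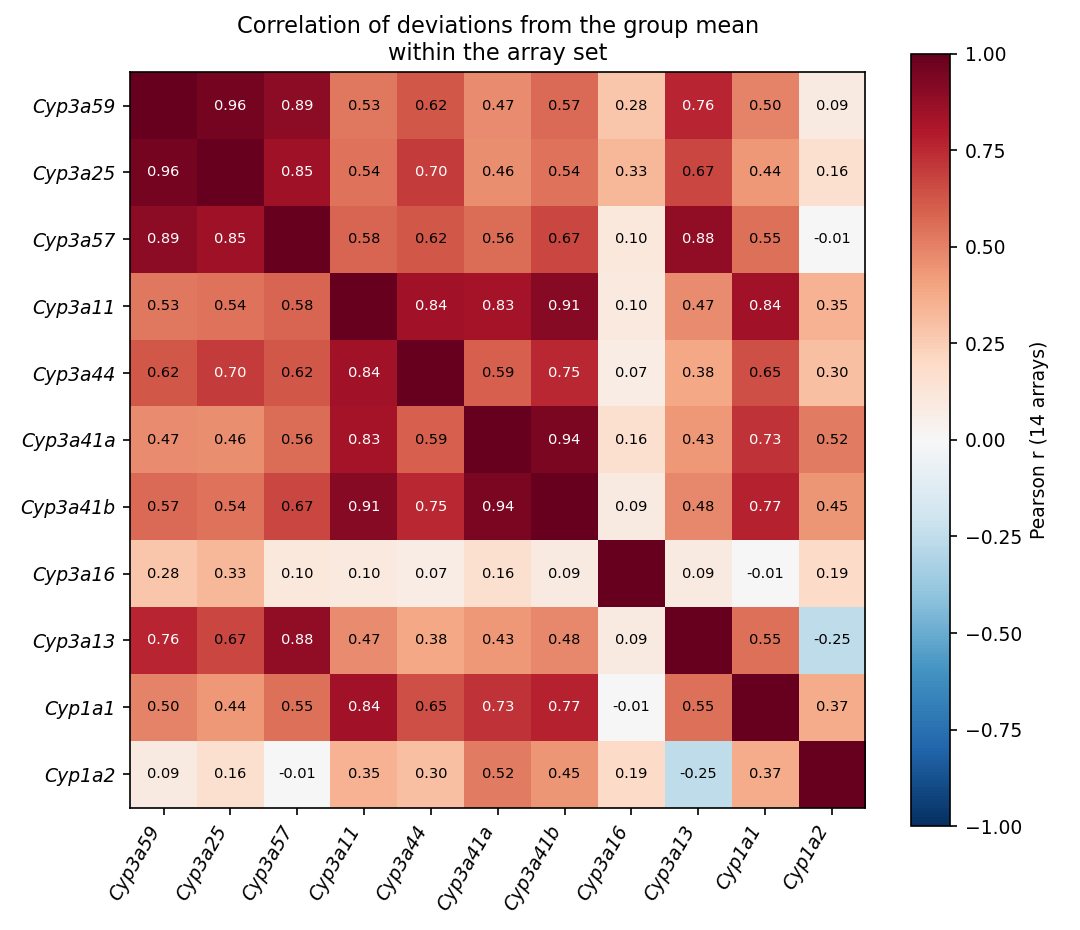
Pearson correlation of each pair of Cyp3a and Cyp1a genes over 14 arrays, computed on deviations from the group mean within the array set; colour and number give r. Cyp3a25 with Cyp3a59 (0.96) and Cyp3a11 with Cyp3a41a, Cyp3a44 and Cyp1a1 (0.83 to 0.84) are the pairs with an adjusted p under 0.05.

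Among 11851 genes ranked by the correlation of the same deviations, those most like Cyp3a11 were Rnf103 (r = 0.93), an endoplasmic reticulum ubiquitin ligase, Vdac1 (0.92), the mitochondrial outer membrane channel, Cyp3a41b (0.91), Lancl1 (0.90) and Cmc1 (0.89). Those most like Cyp1a2 were Gramd3 (0.93), Ddx47 (0.93), an RNA helicase, Bcl6 (0.92), a transcriptional repressor, Crebbp (0.92), a histone acetyltransferase, and Nlrp6 (0.92). These are the highest of many correlations over 14 arrays and are given as a description. In the ranking for Cyp3a11, the members with a mean of at least 5 stood at 13 (Cyp3a44), 704 (Cyp3a25), 781 (Cyp3a59), 1144 (Cyp3a13) and 2247 (Cyp1a2).

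The receptors that control the members did not pass the test. Nr1i2 (PXR) differed by 0.18 ± 0.09 (SE; limma adjusted p = 0.505), Nr1i3 (CAR) by -0.07 ± 0.06 (SE; limma adjusted p = 0.762), Ahr by 0.15 ± 0.09 (SE; limma adjusted p = 0.608) and Arnt by 0.06 ± 0.09 (SE; limma adjusted p = 0.905). Rxra, the partner of PXR and CAR, differed by -0.01 ± 0.08 (SE; limma adjusted p = 0.988), and Hnf4a, a hepatocyte factor that Cyp3a genes need, by 0.08 ± 0.06 (SE; limma adjusted p = 0.708). Of 20 measured genes among 24 listed receptors and partners, 1 rose and 0 fell, with a median difference of 0.04. Over all genes 0.702% were called, the share to set beside the counts of this and the following lists, which are given as a description. The one was Hsp90aa1, a chaperone that holds AhR and CAR in the cytoplasm among many other clients, which was higher by 0.55 ± 0.09 (SE; limma adjusted p = 0.0111) and above its own controls in 8 of 8 knockouts.

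Targets of PXR and CAR had differences in both directions. Of 30 measured genes of 34 listed, 2 rose and 1 fell, where 0.702% of all genes were called. Among the 30, 18 had a positive difference and 12 a negative one. They ran from -1.14 to 0.75 with a median of 0.06. Ephx1, the microsomal epoxide hydrolase, was higher by 0.52 ± 0.08 (SE; limma adjusted p = 0.00873) and Slco1a4, an organic anion uptake transporter, by 0.67 ± 0.14 (SE; limma adjusted p = 0.0335). Thrsp, a regulator of lipogenesis, was lower, with a difference of -0.75 ± 0.10 (SE; limma adjusted p = 0.00514). Each of the 3 lay beyond its own controls in 8 of 8 knockouts, and Slco1a4 lost its call in 10 of 14 fits that left out 1 array (adjusted p up to 0.0953). Cyp2b10, the standard CAR target, gave -0.53 ± 0.15 (SE; limma adjusted p = 0.156) with 6 of 8 knockouts below their controls, a difference that did not pass. Of 10 measured AhR targets of 13 listed, 0 passed limma's adjusted threshold, and the median was 0.07.

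Haem supply and electron transfer, on which every P450 depends, are represented by 23 measured genes of 26 listed, of which 1 rose and 0 fell, with a median of 0.01. Blvrb, biliverdin reductase B, which acts in haem breakdown, was higher by 0.39 ± 0.08 (SE; limma adjusted p = 0.0389), and lost its call in 10 of 14 fits with 1 array left out. Alas1, the rate-limiting enzyme of haem synthesis and itself a PXR and CAR target, was above its own controls in 7 of 8 knockouts at 0.29 ± 0.10 (SE; limma adjusted p = 0.261). Cyb5a, cytochrome b5, differed by -0.01 ± 0.06 (SE; limma adjusted p = 0.977). Among 15 other P450 genes measured of 16 listed, Cyp3a41b and Cyp3a57 included, Cyp8b1, the sterol 12-alpha-hydroxylase of bile acid synthesis, rose by 0.46 ± 0.08 (SE; limma adjusted p = 0.022), and Cyp2r1, a vitamin D 25-hydroxylase, had a difference of -0.36 ± 0.08 (SE; limma adjusted p = 0.0454). Cyp8b1 lost its call once and Cyp2r1 13 times when 1 array of the 14 was left out. Without control 1 and control 4, Thrsp and Slco1a4 kept their calls, while Hsp90aa1, Ephx1, Blvrb, Cyp8b1 and Cyp2r1 did not.

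Sex-biased and zonal lists give the setting of the female-predominant and pericentral members. Of 16 measured male-biased genes 13 had a positive difference (median 0.15), and of 16 female-biased genes 11 had a negative one (median -0.10); in each, 0 passed limma's adjusted threshold. Cyp3a41a and Cyp3a44, female-predominant in background knowledge, had positive differences. Of 20 measured pericentral genes, the zone of Cyp1a2, 1 fell: Slc1a2, a glutamate transporter, with -0.37 ± 0.08 (SE; limma adjusted p = 0.0454), a call lost in each of the 14 fits that left out 1 array. Of 15 periportal genes 0 passed. Among other cell types 0 genes passed in each list, with medians of -0.01 for 15 endothelial, 0.08 for 13 Kupffer cell, -0.08 for 13 stellate, -0.05 for 7 bile duct and 0.12 for 9 lymphocyte genes.

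**Figure D5:**
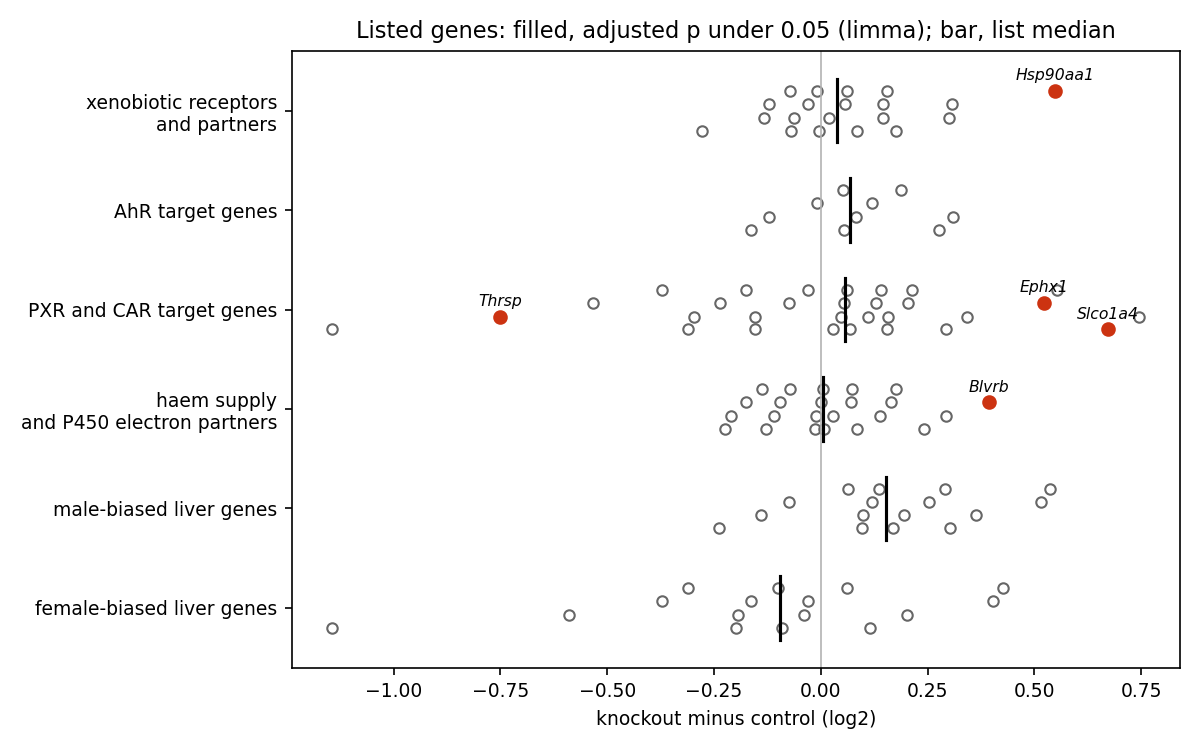
Differences, knockout minus control on the log2 scale, of genes in 6 lists (receptors and partners, AhR targets, PXR and CAR targets, haem and electron supply, male-biased and female-biased genes); each point is 1 gene and the bar its list's median. Filled points, named beside them, pass limma's adjusted threshold of 0.05, and the medians run from -0.10 to 0.15.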

How the data were processed

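The deposited table holds log2 intensities of 14 liver arrays, 22206 transcript cluster rows, with values from 2.13 to 13.8. Per the labels, RNA was prepared with the Affymetrix WT PLUS kit, and RMA and Partek are named, without versions, in the submitters' processing notes; the log2 scale was taken from the range of the values. Other steps are not given in the sources used here. Gene symbols were joined by gene identifier (19572 rows with 1 symbol, 2634 unnamed), and of 55 genes with more than 1 row the brightest was kept. Arrays give no read depth, so their number limits the precision.

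Groups were compared with limma 3.58.1 in R 4.3.3, lmFit and eBayes, with array set in the model (11 residual degrees of freedom) and Benjamini-Hochberg adjustment over 19505 genes. Array sets came from clustering the array correlations. Limma p-values set a difference between groups against the spread between samples, and whether each sample is a separate mouse is not known. The members, lists, set term and alternatives were chosen with earlier results of these data known, and no test is given for the members' group difference. Named genes are the members, Prkaa1, Prkaa2, 9 regulators, partners and targets, up to 4 called genes per list with the largest difference, and the 5 genes most like Cyp3a11 and Cyp1a2 (predicted genes, RIKEN clones and genes with a mean under 5 left out); Cyp3a57 and Cyp3a41b are given outside this rule as cluster neighbours. Same-numbered control and knockout arrays had deviations correlating at 0.0229 to 0.0871 over 6 pairs, so the numbers were not taken as pairs. Promoter windows are RefSeq, GRCm38.p6, aligned with Biopython 1.88. The limma script was tested on simulated data. Alternatives were no set term, a filter on dim genes, renormalization, median centring, trend and robust eBayes, array weights, a replicate block, row averaging, merged or omitted repeat-numbered arrays, omitted arrays and each set alone.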

Additional observations from a re-analysis of the deposited data

How the results depend on the processing

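All 241 differences of single members under the alternatives kept their sign and moved by less than 1 residual SD. Part of this was fixed in advance. The groups are in equal proportion in both sets and each member has 1 row, so dropping the set term or row averaging could not change a difference. Neither could trend with robust eBayes or the dim-gene filter. The limit is also wide: Cyp3a44 went from 0.47 to 0.31 without control 5, and Cyp3a13 from -0.18 to -0.09 without control 4. Of the 9 measured members 7 stayed positive under each alternative, except that 5 of the 7 left did when genes under 5 were left out. Calls depended on the settings. Against 137 genes called, no set term gave 0, leaving out genes under 5 gave 223, trend with robust 325, knockout 5 and 7, 6 and 8 averaged 67, knockout 7 and 8 left out 12, control 1 and control 4 left out 26, and array set 1 or array set 2 alone 2 each. Leaving out 1 array gave 44 to 132. Against 5 pathway genes called (Hsp90aa1, Thrsp, Slco1a4, Ephx1 and Blvrb), these gave 0 with no set term, 8 with trend and robust, 3 with averaging, 2 without knockout 7 and 8, 2 without control 1 and control 4, and 0 in either set alone; leaving out 1 array gave 3 to 6. The replicate block left 2 genes and 0 pathway genes called, with numbers that do not pair the arrays. The cause was not tested. Signal over background is unknown, which limits Cyp3a16, Cyp3a41a and Cyp1a1.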
